A study of Mus musculus with 12 samples.

Results

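The genes described here drive DNA replication and cell division. The list names 38 genes, 18 of S phase and 20 of mitosis, and was read by gene symbol in a table of 11669 genes from mouse cells. Of the 38, 33 were in the table, 13 of S phase and 20 of mitosis, and Mcm2, Mcm7, Rrm1, Rrm2 and Tyms were not analysed here. The level filter of at least 1 FPKM (here reads per kilobase of gene, scaled to the library size) in at least 3 libraries left 28 genes for testing, 11 of S phase and 17 of mitosis, among 8615 tested genes. Cdc6, Ccne2, Cenpe, Cenpf and Nusap1 were in the table and below that filter.

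RNA was sequenced from 12 libraries, 3 in each of 4 groups, after 24 h of treatment. D was present in the groups NP-D@MP and NP-D@M and absent in NP@M and PBS. By its title the series concerns a membrane-coated nanodrug aimed at cyclin-dependent kinases (CDKs) and PD-L1. The labels spell out neither D nor the coats M and MP, and PBS, a salt buffer, is the untreated control. All cells carry the name TAMC and are given as immune cells of marrow, whereas the extraction text speaks of retina. Of 10 monocyte and macrophage markers 10 were in the table, and of 6 retina markers 0. Whether libraries of 1 group stem from different cultures or mice is not in the labels, and p-values here reflect the spread between libraries.

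Entry into S phase is driven by cyclin E and by E2F transcription factors, which switch on the genes for origin licensing, helicase activation and DNA synthesis once the retinoblastoma protein is inactivated. Later in the cycle, B-MYB and FOXM1 act at CHR (cell cycle homology region) elements to switch on the mitotic genes, whose products condense chromosomes, build the spindle and activate CDK1 with cyclin B. In resting cells the DREAM repressor complex holds both sets silent, and at anaphase the ubiquitin ligase APC/C, with CDC20 and the conjugating enzyme UBE2C, destroys cyclin B. Many mature myeloid cells do not divide, while their marrow precursors do.

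Promoters of the listed genes carry letters that set the S phase and mitotic sets apart, and 5 of them are shown. As deposited, Cdk1 and Ube2c were called higher in NP-D@M than in NP@M, and Cdc20, Top2a and Mcm5 lower. The sequences are from RefSeq (GRCm38.p6) and run 5′ to 3′ on the strand of the gene over the 180 bases before the start given there. That start can differ from the gene positions given below. By those positions the stretches of Cdk1, Ube2c and Cdc20 reach into the gene, and that of Mcm5 stops short of it. Capitals mark E2F letters (TTCCCGC or TTGGCGC or TTCGCGC or TTGCCGC), CHR letters (TTTGAA or TTCGAA) and the CCAAT box, each read on both strands. All 5 stretches hold a CCAAT box, all but Mcm5 hold CHR letters, and only Cdk1 and Mcm5 hold E2F letters. Cdk1 lies at chr10:69352913-69353092 (minus strand), Ube2c at chr2:164769749-164769928 (plus strand), Cdc20 at chr4:118437344-118437523 (minus strand), Top2a at chr11:99024190-99024369 (minus strand) and Mcm5 at chr8:75109329-75109508 (plus strand). In Mcm5 an E2F match on each strand overlaps, so they print as 1 run of capitals.
Cdk1: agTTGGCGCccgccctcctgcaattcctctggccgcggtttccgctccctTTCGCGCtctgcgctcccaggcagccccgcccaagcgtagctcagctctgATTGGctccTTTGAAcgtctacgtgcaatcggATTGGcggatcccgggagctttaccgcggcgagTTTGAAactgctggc
Ube2c: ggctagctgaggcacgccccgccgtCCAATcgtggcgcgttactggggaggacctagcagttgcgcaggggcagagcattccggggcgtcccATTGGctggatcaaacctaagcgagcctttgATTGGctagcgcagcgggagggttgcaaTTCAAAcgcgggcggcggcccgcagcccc
Cdc20: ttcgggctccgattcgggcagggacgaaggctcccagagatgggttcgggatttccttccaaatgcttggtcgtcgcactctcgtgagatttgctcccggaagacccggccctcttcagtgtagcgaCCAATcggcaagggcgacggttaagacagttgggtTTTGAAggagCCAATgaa
Top2a: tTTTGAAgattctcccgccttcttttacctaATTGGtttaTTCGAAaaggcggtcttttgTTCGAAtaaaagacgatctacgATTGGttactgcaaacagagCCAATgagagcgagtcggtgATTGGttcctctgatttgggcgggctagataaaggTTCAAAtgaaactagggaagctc
Mcm5: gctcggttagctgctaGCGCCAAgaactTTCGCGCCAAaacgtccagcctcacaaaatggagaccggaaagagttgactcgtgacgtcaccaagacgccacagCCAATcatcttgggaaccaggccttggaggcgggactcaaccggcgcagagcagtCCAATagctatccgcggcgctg

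Of the 33 genes in the table, 26 had a RefSeq promoter of 300 bases, 250 before and 50 after the start, with 27 promoters in all since Uhrf1 has 2. CHR letters stood in 12 of 16 mitotic promoters (75.0%) and 1 of 11 S phase promoters (9.09%), against 13.6% of the promoters of tested genes and 19.2% of all mouse promoters. All 12 of those mitotic promoters also held a CCAAT box, a pair of motifs found in 5.51% of the promoters of tested genes. E2F letters stood in 7 of 11 S phase promoters (63.6%) and 3 of 16 mitotic promoters (18.8%), against 16.1% of the promoters of tested genes and 9.57% of all promoters. A CCAAT box was present in 8 of 11 S phase and 14 of 16 mitotic promoters, against 36.9% of the promoters of tested genes and 37.4% of all. CHR letters were in 3 of 5 promoters of genes called higher in NP-D@M than in NP@M and in 9 of 18 promoters of genes called lower. The end of the window lay in a transcript of the gene, on the same strand, for 23 of the 27 promoters, and not for Mcm5. The matches are a description of these windows only.

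The scaling of the deposited values bears on every comparison of D with no D. Each value is a whole number of reads divided by gene length and by a library size, and these library sizes were 0.468 to 0.553 times the reads recovered from the table in the 6 libraries with D and 2.19 to 2.36 times in the 6 without. Recovered reads were 14444950 to 17338264 per library. Dividing by the recovered reads instead moved the median log2 fold change of all tested genes to -1.47, against 0.16 as deposited, for NP-D@M against NP@M, and to -1.48, against 0.13, for NP-D@MP against PBS. Results by the second scaling are given below as "with the read totals" or "by the read totals". Alternatives named where they change a call are equal medians (each library shifted to the same median), quantile normalization (each library given the same distribution of values) and voom (limma on the recovered reads). The fold changes also leave a gap around 0: 2.02% of tested genes lay within 0.3 of 0 in NP-D@M against NP@M and 2.29% in NP-D@MP against PBS, against 94.0% in NP@M against PBS. No source used here says how the authors chose the genes of the table, and p-values apply within it.

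The share of genes at 0 was 8.94% to 13.4% in libraries with D. In PBS replicate 3 and NP@M replicate 2 it was 9.31% and 9.11%, while the remaining libraries without D had 2.65% to 2.96%, and these 2 libraries are called apart below. Levels of cell type markers moved with D beside all of the genes below. The 10 monocyte and macrophage markers, led by Lyz2, summed to 29298 to 39769 FPKM with D and 2367 to 3744 FPKM without, and to 15447 to 19190 and 5576 to 8195 with the read totals. Of 4 platelet and megakaryocyte markers 4 were in the table, with sums of 20396 to 28667 FPKM with D and 484 to 1211 without (10754 to 14457 and 1120 to 2831 with the read totals), from Pf4 and Ppbp, while Gp9 was near 0. Of 10 neutrophil markers 8 were in the table, with sums of 1049 to 3218 FPKM with D and 477 to 1409 without, while with the read totals the order turned, with 551 to 1569 with D and 1104 to 3295 without. Of 5 dendritic markers 3 were in the table, with sums of 480 to 712 FPKM with D and 67.1 to 98.6 without. With the read totals these were 234 to 344 and 157 to 228, and without D they came almost all from Itgax. Markers of mast cells and basophils, of epithelium and tumour, and of fibroblasts and endothelium summed to at most 33.9 FPKM per set in any library. Ms4a1 was the one B cell marker of 4 and Gata1 the one erythroid marker of 5 in the table, both near 0, and of 6 T and NK cell markers 0 were in the table. The part of a change in cell makeup in the cell cycle results was not tested.

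With D, most genes of both sets fell. Of the 28 tested, 22 were called lower and 6 higher in NP-D@M than in NP@M (limma on log2(FPKM + 1), adjusted p under 0.05), where 46.0% of all tested genes were called lower and 45.2% higher. The 28 genes had a median log2 fold change of -1.12, against 0.16 for all tested genes. In NP-D@MP against PBS, 20 were called lower, 5 higher and 3 were not called, where 45.8% of all tested genes were lower and 45.7% higher, and the medians were -1.02 for the 28 genes and 0.13 for all. Cdt1, Ccne1, Slbp, Cdc45, Ccna2, Ccnb1, Plk1, Aurka, Aurkb, Bub1b, Cdc20, Kif11, Tpx2 and Top2a were under 1 FPKM in every library with D. They passed the level filter only through libraries without D, so the count of lower genes is not independent of it. Without the filter, 27 of 33 genes of the list were called lower and 6 higher in NP-D@M against NP@M. Of all 11669 genes then tested, 5371 were lower and 4340 higher. In bulk RNA, fewer dividing cells and less RNA per dividing cell cannot be told apart. With the read totals, 25 of 28 were lower and 0 higher in each of the comparisons with D. The backgrounds were then 61.7% lower and 9.12% higher in NP-D@M against NP@M and 62.4% lower and 9.01% higher in NP-D@MP against PBS. Without PBS replicate 3 and NP@M replicate 2, 21 were lower and 6 higher in NP-D@M against NP@M, and 20 were lower and 6 higher in NP-D@MP against PBS.

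The split of the list was also read relative to the median of all tested genes, under the deposited scaling and the read totals. A change of library size shifts all genes of a library alike, so agreement between the scalings here follows by construction. Only the 1 FPKM added before the log can move a gene against that median, so the agreement is no further evidence. Gins2, Pcna, Cdk1, Ccnb2, Ube2c and Birc5 lay above that median in NP-D@M against NP@M under both scalings, and the other 22 below it under both. The median distance of the 28 genes from it was -1.27 log2 units as deposited and -0.97 with the read totals. The same distance for NP-D@MP against PBS was -1.16 as deposited and -0.86 with the read totals. There, 5 genes were above the median under both scalings and 21 below under both, while Pcna was above as deposited only (0.29, against -0.24 with the read totals) and Bub1 with the read totals only (0.38, against -0.34 as deposited). NP-D@M against NP@M and NP-D@MP against PBS share no library. All 28 genes had the same sign in both, as had 98.9% of all tested genes, and 25 of 28 (89.3%) were called in both in the same direction, as were 86.8% of all tested genes. Below, libraries with and without D are often said not to overlap. The share of all tested genes that separate likewise was not counted, so this is not read as a trait of the listed genes.

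**Figure D1:**
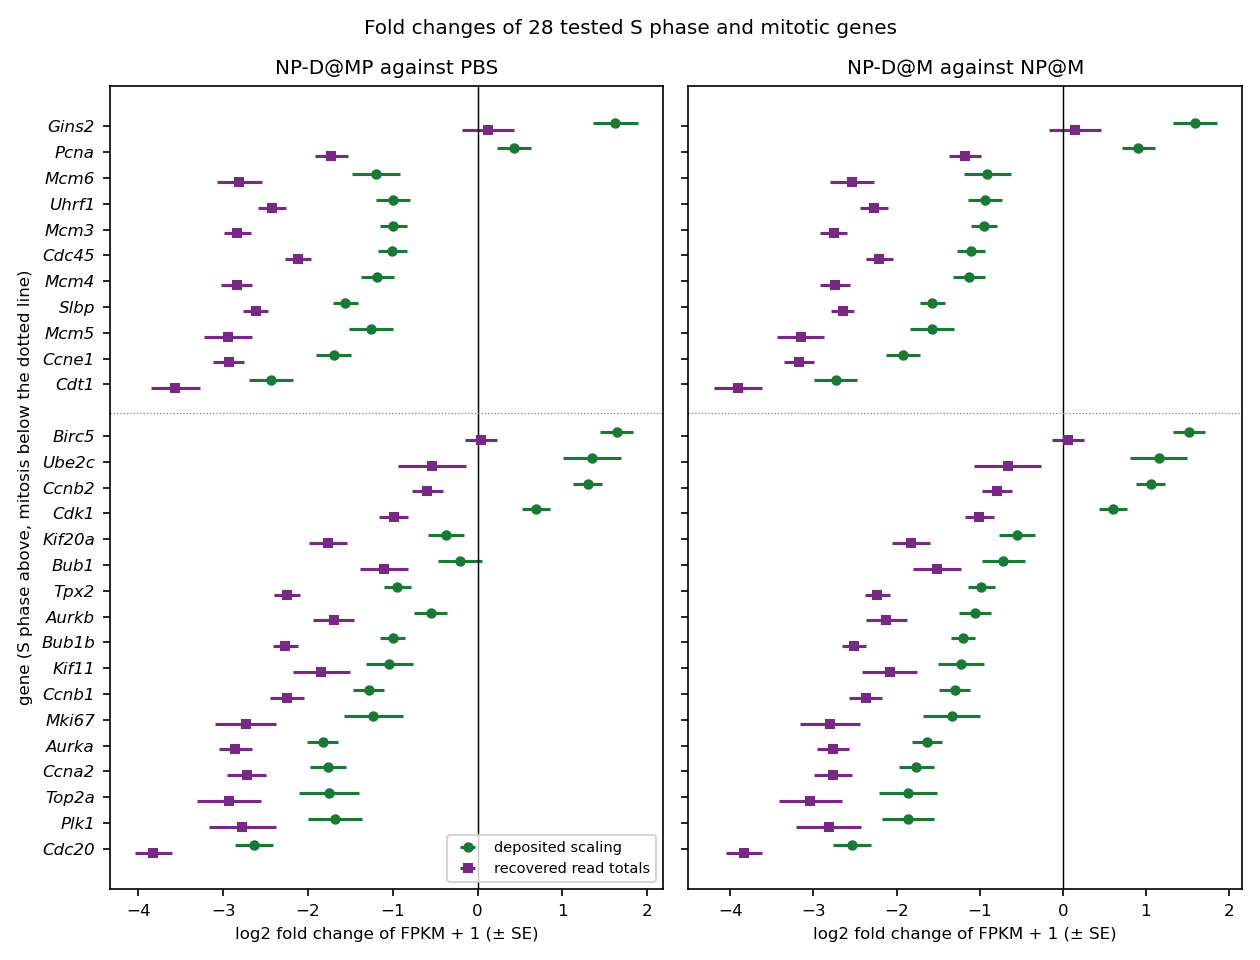
Log2 fold change of FPKM + 1 with its SE for the 28 tested genes, S phase above and mitosis below the dotted line, for NP-D@MP against PBS (left) and NP-D@M against NP@M (right). Circles use the deposited scaling and squares the recovered read totals. As deposited, Gins2, Pcna, Birc5, Ube2c, Ccnb2 and Cdk1 lie right of 0 and the others left of it in both panels, and with the read totals each point moves to the left.

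Origin licensing loads the MCM helicase onto DNA before S phase. Cdt1, the factor that loads it (ENSMUSG00000006585, chromosome 8 from 122568015 to 122573554), had 0, 0.156 and 0.202 FPKM in NP-D@MP libraries and 0.332, 0 and 0.0718 FPKM in NP-D@M libraries, against 6.94, 5.29 and 7.4 FPKM in NP@M libraries and 6.81, 6.42 and 2.82 FPKM in PBS libraries. The libraries with D had 0 to 9 reads and those without D 280 to 875, with no overlap. By limma, Cdt1 had log2 fold changes of -2.73 (SE 0.26, adjusted p = 2.71e-06) in NP-D@M against NP@M and -2.44 (SE 0.26, adjusted p = 6.23e-06) in NP-D@MP against PBS, and -3.91 and -3.57 with the read totals. The helicase subunit gene Mcm5 (ENSMUSG00000005410, chromosome 8 from 75109569 to 75128439) had 2.21, 1.94 and 2.07 FPKM in NP-D@MP libraries and 2.29, 1.12 and 1.24 FPKM in NP-D@M libraries, against 7.5, 4.88 and 7.18 FPKM in NP@M libraries and 8.9, 6.86 and 4.05 FPKM in PBS libraries. Every library with D was below every library without D, PBS replicate 3 being the lowest of those. On the log2 scale Mcm5 changed by -1.57 (SE 0.26, adjusted p = 0.000193) in NP-D@M against NP@M and by -1.26 (SE 0.26, adjusted p = 0.000919) in NP-D@MP against PBS, and -3.16 and -2.95 with the read totals. The other subunit genes fell too: in NP-D@M against NP@M the log2 fold change was -0.95 (SE 0.16, adjusted p = 0.000172) for Mcm3, -1.13 (SE 0.19, adjusted p = 0.000231) for Mcm4 and -0.91 (SE 0.28, adjusted p = 0.00989) for Mcm6, with -2.76, -2.74 and -2.53 by the read totals. The call of Mcm6 was lost with equal medians, at -0.51 (adjusted p = 0.111), and with quantile normalization, at -0.64 (adjusted p = 0.133). Cdc6, which recruits the helicase together with Cdt1 and was not tested, had 0, 0.211 and 0 FPKM in NP-D@MP libraries and 0.177, 0 and 0 FPKM in NP-D@M libraries, against 0.741, 0.989 and 0.991 FPKM in NP@M libraries and 0.778, 0.868 and 1.45 FPKM in PBS libraries.

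Firing of origins needs CDC45 and the GINS complex, which turn the loaded helicase into an active one. Cdc45 stood at 0.433 ± 0.172 FPKM in NP-D@MP and 0.369 ± 0.195 in NP-D@M, against 1.93 ± 0.187 in NP@M and 1.89 ± 0.544 in PBS (SD, n = 3). It fell in both comparisons, with log2 fold changes of -1.11 (SE 0.17, adjusted p = 8.72e-05) in NP-D@M against NP@M and -1.0 (SE 0.17, adjusted p = 0.000177) in NP-D@MP against PBS, and -2.21 and -2.12 with the read totals. With quantile normalization neither was called, at -0.39 (adjusted p = 0.0864) and -0.28 (adjusted p = 0.193), and 209 of its exonic bases lie opposite Ufd1. Gins2, the gene of a GINS subunit (ENSMUSG00000031821, chromosome 8 from 120578633 to 120589304), went the other way as deposited, with 3.96, 4.31 and 7.73 FPKM in NP-D@MP libraries and 6.01, 3.98 and 4.73 FPKM in NP-D@M libraries, against 1.33, 0.722 and 0.837 FPKM in NP@M libraries and 1.55, 1.08 and 0.479 FPKM in PBS libraries. All 6 libraries with D were above all 6 without. The log2 fold change was 1.59 (SE 0.27, adjusted p = 0.000192) in NP-D@M against NP@M and 1.63 (SE 0.27, adjusted p = 0.000161) in NP-D@MP against PBS. By the read totals the values were 0.15 (adjusted p = 0.686) and 0.12 (adjusted p = 0.743), which did not pass. In reads, Gins2 had 128 to 249 with D and 62 to 219 without. Its exons overlap Gse1 on the other strand over 2758 bases, and without a stated strand the reads of the pair cannot be told apart. Gse1 itself stood at 0.242 ± 0.0703 FPKM in NP-D@M and 2.66 ± 0.683 FPKM in NP@M (SD, n = 3).

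Pcna, the sliding clamp that holds DNA polymerase on its template (ENSMUSG00000027342, chromosome 2 from 132249162 to 132253314), had the highest level of the list in every group, with 24, 35.3 and 30.3 FPKM in NP-D@MP libraries and 36.7, 31 and 35.4 FPKM in NP-D@M libraries, against 20.0, 15.5 and 18.1 FPKM in NP@M libraries and 20.1, 18.8 and 27 FPKM in PBS libraries. NP-D@M libraries were all above NP@M libraries, while NP-D@MP and PBS libraries overlapped. By limma, Pcna had log2 fold changes of 0.91 (SE 0.20, adjusted p = 0.00129) in NP-D@M against NP@M and 0.43 (SE 0.20, adjusted p = 0.061) in NP-D@MP against PBS, and -1.18 and -1.72 with the read totals, where the sign turned. Quantile normalization also turned it, to -0.41 (adjusted p = 0.171) and -0.95 (adjusted p = 0.00641), and voom gave 0.38 (adjusted p = 0.0953) and -0.16 (adjusted p = 0.478), neither called. Equal medians called the NP-D@MP comparison higher, at 0.81 (adjusted p = 0.00238). As deposited, the call in NP-D@MP against PBS was made without PBS replicate 3 (0.58, adjusted p = 0.0157) and without NP-D@MP replicate 1 (0.57, adjusted p = 0.0259). By rank within a library, which no scaling changes, Pcna stood at percentile 85.9 in NP-D@MP and 87.5 in NP-D@M, against 90.0 in NP@M and 91.3 in PBS.

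Cyclin E1, the CDK2 partner that starts S phase, is encoded by Ccne1 (ENSMUSG00000002068, chromosome 7 from 38097984 to 38107534). It had 0.129, 0.692 and 0.478 FPKM in NP-D@MP libraries and 0.522, 0.192 and 0.423 FPKM in NP-D@M libraries, against 3.41, 5.49 and 3.92 FPKM in NP@M libraries and 3.9, 2.91 and 4.0 FPKM in PBS libraries. No library with D reached the lowest library without D. On the log2 scale Ccne1 changed by -1.92 (SE 0.20, adjusted p = 6.12e-06) in NP-D@M against NP@M and by -1.69 (SE 0.20, adjusted p = 1.6e-05) in NP-D@MP against PBS, and -3.17 and -2.93 with the read totals. Its relative Ccne2, not tested, had 0 to 4 reads with D and 29 to 60 without, and shares 609 exonic bases with Ints8 on the other strand. Slbp, whose product binds the stem-loop of histone mRNAs (ENSMUSG00000004642, chromosome 5 from 33634952 to 33652574), had 0.113, 0.283 and 0.167 FPKM in NP-D@MP libraries and 0.0762, 0.252 and 0.241 FPKM in NP-D@M libraries, against 2.26, 2.84 and 2.48 FPKM in NP@M libraries and 2.25, 2.1 and 3.22 FPKM in PBS libraries. The groups with and without D were separate. The log2 fold change was -1.57 (SE 0.15, adjusted p = 2.68e-06) in NP-D@M against NP@M and -1.56 (SE 0.15, adjusted p = 2.78e-06) in NP-D@MP against PBS, and -2.65 and -2.62 with the read totals; 474 exonic bases lie under Gm10459 on the other strand. Uhrf1, which carries DNA methylation over to the new strand, stood at 0.92 ± 0.41 FPKM in NP-D@M and 2.61 ± 0.212 in NP@M (SD, n = 3) and changed by -0.93 (SE 0.20, adjusted p = 0.00117) on the log2 scale and by -2.27 with the read totals. With quantile normalization it was not called, at -0.28 (adjusted p = 0.25).

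CDK1 is the kinase of mitosis, and its gene is the one CDK gene of the list (ENSMUSG00000019942, chromosome 10 from 69335146 to 69352938). Cdk1 had 3.69, 4.83 and 3.71 FPKM in NP-D@MP libraries and 3.33, 4.06 and 3.63 FPKM in NP-D@M libraries, against 2.29, 1.69 and 2.25 FPKM in NP@M libraries and 2.62, 2.12 and 1.74 FPKM in PBS libraries. Every library with D was above every library without D. By limma, Cdk1 had log2 fold changes of 0.61 (SE 0.17, adjusted p = 0.00519) in NP-D@M against NP@M and 0.69 (SE 0.17, adjusted p = 0.00242) in NP-D@MP against PBS. With the read totals the sign turned, to -1.0 (adjusted p = 0.000284) and -0.99 (adjusted p = 0.000313), still above the median of all tested genes by 0.46 and 0.49. By voom Cdk1 was not called, at 0.26 (adjusted p = 0.313) and 0.32 (adjusted p = 0.211). Within a library Cdk1 stood at percentile 68 in NP-D@MP and 67 in NP-D@M, against 49.9 in NP@M and 50.6 in PBS.

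The cyclin genes that CDK1 depends on split. Ccnb1, which encodes cyclin B1 (ENSMUSG00000041431, chromosome 13 from 100778650 to 100786570), had 0.298, 0.146 and 0.0301 FPKM in NP-D@MP libraries and 0.247, 0.272 and 0.241 FPKM in NP-D@M libraries, against 1.52, 3.03 and 1.9 FPKM in NP@M libraries and 1.65, 1.48 and 2.38 FPKM in PBS libraries. With D it had 1 to 11 reads a library and without D 227 to 449, so the groups were separate. On the log2 scale Ccnb1 changed by -1.30 (SE 0.19, adjusted p = 5.69e-05) in NP-D@M against NP@M and by -1.29 (SE 0.19, adjusted p = 6.27e-05) in NP-D@MP against PBS, and -2.37 and -2.25 with the read totals. Ccnb2, which encodes cyclin B2 (ENSMUSG00000032218, chromosome 9 from 70407692 to 70421547), had 8.81, 9.22 and 10.7 FPKM in NP-D@MP libraries and 8.92, 9.41 and 8.32 FPKM in NP-D@M libraries, against 3.95, 3.19 and 4.13 FPKM in NP@M libraries and 4.29, 3.02 and 2.71 FPKM in PBS libraries. Here the libraries with D were all above those without. The log2 fold change was 1.06 (SE 0.17, adjusted p = 0.00015) in NP-D@M against NP@M and 1.30 (SE 0.17, adjusted p = 3.12e-05) in NP-D@MP against PBS, and, with the sign turned, -0.79 and -0.59 with the read totals. Ccna2, the gene of cyclin A2 (ENSMUSG00000027715, chromosome 3 from 36564865 to 36572150), had 0, 0.0902 and 0.0311 FPKM in NP-D@MP libraries and 0, 0.0625 and 0.11 FPKM in NP-D@M libraries, against 2.3, 3.23 and 2.29 FPKM in NP@M libraries and 2.11, 1.73 and 4.19 FPKM in PBS libraries. Among the 6 libraries with D it had 0 to 4 reads, and among the 6 without D 269 to 541. By limma, Ccna2 had log2 fold changes of -1.76 (SE 0.21, adjusted p = 1.69e-05) in NP-D@M against NP@M and -1.76 (SE 0.21, adjusted p = 1.68e-05) in NP-D@MP against PBS, and -2.77 and -2.72 with the read totals. Its exons share 510 bases with Exosc9 on the other strand.

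**Figure D2:**
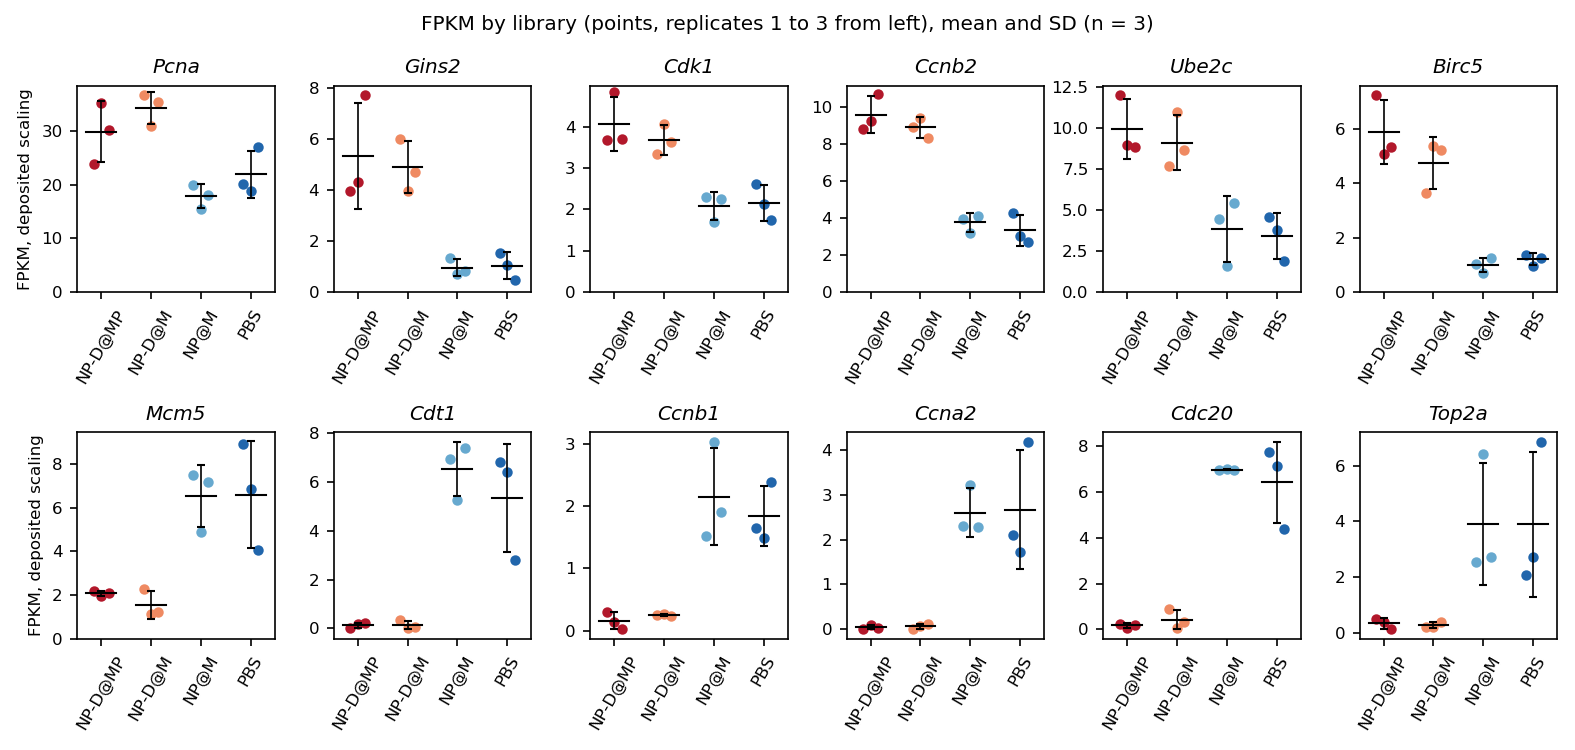
FPKM with the deposited scaling of 12 genes in every library (points), with the mean and SD of each group of 3 (bars), NP-D@MP, NP-D@M, NP@M and PBS from left to right. Points of Gins2, Cdk1, Ccnb2, Ube2c and Birc5 with D lie above all points without D, those of Mcm5, Cdt1, Ccnb1, Ccna2, Cdc20 and Top2a lie below them, and those of Pcna in NP-D@MP and PBS overlap. The share of all tested genes that separate in this way was not counted. PBS replicate 3 and NP@M replicate 2 are the highest points of Top2a without D, at 6.86 and 6.43 FPKM.

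Among the other mitotic kinases, Plk1, which drives mitotic entry and spindle building (ENSMUSG00000030867, chromosome 7 from 122159439 to 122169873), had 0.364, 0.167 and 0.116 FPKM in NP-D@MP libraries and 0, 0 and 0 FPKM in NP-D@M libraries, against 3.37, 1.19 and 4.04 FPKM in NP@M libraries and 3.9, 3.83 and 1.5 FPKM in PBS libraries. The 3 NP-D@M libraries had 0 reads of Plk1, and the 3 NP@M libraries 92 to 334. Against a floor of 3 reads per library it was at least 16.5-fold lower in NP-D@M than in NP@M as deposited and at least 76.9-fold lower with the read totals, a bound that covers counting error only. On the log2 scale Plk1 changed by -1.86 (SE 0.32, adjusted p = 0.000219) in NP-D@M against NP@M and by -1.68 (SE 0.32, adjusted p = 0.000442) in NP-D@MP against PBS, and -2.82 and -2.78 with the read totals, although these fitted values depend on the pseudocount. Plk1 and Gm44985, on the other strand, have 156 exonic bases in common. Aurka, the kinase of spindle poles (ENSMUSG00000027496, chromosome 2 from 172356190 to 172370535), had 0, 0.242 and 0.0502 FPKM in NP-D@MP libraries and 0.137, 0.252 and 0.356 FPKM in NP-D@M libraries, against 3.63, 1.94 and 3.25 FPKM in NP@M libraries and 3.29, 2.65 and 2.71 FPKM in PBS libraries. Again no library with D came near one without D. The log2 fold change was -1.64 (SE 0.18, adjusted p = 8.07e-06) in NP-D@M against NP@M and -1.83 (SE 0.18, adjusted p = 3.57e-06) in NP-D@MP against PBS, and -2.77 and -2.86 with the read totals.

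Aurora B and survivin sit together in the chromosomal passenger complex, which corrects attachments of chromosomes to the spindle. Birc5, the survivin gene (ENSMUSG00000017716, chromosome 11 from 117849251 to 117855743), had 7.26, 5.09 and 5.34 FPKM in NP-D@MP libraries and 3.64, 5.4 and 5.23 FPKM in NP-D@M libraries, against 1.04, 0.719 and 1.24 FPKM in NP@M libraries and 1.38, 0.956 and 1.26 FPKM in PBS libraries. All libraries with D were above all without. By limma, Birc5 had log2 fold changes of 1.52 (SE 0.19, adjusted p = 2.07e-05) in NP-D@M against NP@M and 1.64 (SE 0.19, adjusted p = 1.16e-05) in NP-D@MP against PBS. By the read totals Birc5 stood at 0.06 (adjusted p = 0.786) and 0.04 (adjusted p = 0.85), which did not pass. Aurkb, the kinase gene of the same complex, was at 0.682 ± 0.12 FPKM in NP-D@MP and 0.332 ± 0.082 in NP-D@M, against 1.77 ± 0.236 in NP@M and 1.53 ± 0.691 in PBS (SD, n = 3). It was called lower as deposited, by -1.06 (SE 0.19, adjusted p = 0.000319) in NP-D@M against NP@M and -0.55 (SE 0.19, adjusted p = 0.0163) in NP-D@MP against PBS, with -2.13 and -1.70 by the read totals. With quantile normalization neither was called, at -0.32 (adjusted p = 0.108) and 0.10 (adjusted p = 0.597), and equal medians gave -0.17 (adjusted p = 0.401) against PBS. Against PBS the call was lost without PBS replicate 1 (-0.38, adjusted p = 0.0735) or PBS replicate 2 (-0.49, adjusted p = 0.0575), and NP-D@MP and PBS libraries overlapped through PBS replicate 3.

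At anaphase APC/C is switched on by CDC20 and fed with ubiquitin by UBE2C. Cdc20 (ENSMUSG00000006398, chromosome 4 from 118432901 to 118437352) had 0.245, 0.0657 and 0.204 FPKM in NP-D@MP libraries and 0.867, 0.0683 and 0.302 FPKM in NP-D@M libraries, against 6.97, 7.0 and 6.97 FPKM in NP@M libraries and 7.73, 7.13 and 4.4 FPKM in PBS libraries. It had 1 to 14 reads in libraries with D and 260 to 508 in libraries without. On the log2 scale Cdc20 changed by -2.54 (SE 0.23, adjusted p = 1.88e-06) in NP-D@M against NP@M and by -2.64 (SE 0.23, adjusted p = 1.43e-06) in NP-D@MP against PBS, and -3.84 and -3.82 with the read totals, the largest fall of the mitotic genes on the log2(FPKM + 1) scale. By voom the order differed, with -5.03 for Cdc20, -6.21 for Ccna2 and -7.14 for Plk1 in NP-D@M against NP@M. Of its exonic bases 53 are shared with Elovl1 on the other strand. Ube2c (ENSMUSG00000001403, chromosome 2 from 164769898 to 164778822) had 12, 8.97 and 8.8 FPKM in NP-D@MP libraries and 7.7, 10.9 and 8.63 FPKM in NP-D@M libraries, against 4.43, 1.57 and 5.44 FPKM in NP@M libraries and 4.57, 3.76 and 1.89 FPKM in PBS libraries. All libraries with D were above all without, among which NP@M replicate 2 and PBS replicate 3 were lowest. The log2 fold change was 1.16 (SE 0.34, adjusted p = 0.00778) in NP-D@M against NP@M and 1.35 (SE 0.34, adjusted p = 0.00317) in NP-D@MP against PBS. By the read totals Ube2c was at -0.66 (adjusted p = 0.163) and -0.54 (adjusted p = 0.253), the sign turned and not called. By voom it was higher and not called, at 0.84 (adjusted p = 0.11) and 1.01 (adjusted p = 0.0606). It overlaps Tnnc2 on the other strand over 592 exonic bases. The promoters of Cdc20 and Ube2c printed above both hold CHR letters next to CCAAT boxes. Bub1 and Bub1b, genes of the spindle checkpoint that restrains CDC20, had log2 fold changes in NP-D@M against NP@M of -0.71 (SE 0.26, adjusted p = 0.0217) and -1.20 (SE 0.15, adjusted p = 1.62e-05), with -1.51 and -2.51 by the read totals. In NP-D@MP against PBS the value of Bub1 was -0.20 (SE 0.26, adjusted p = 0.456), not called, and by the read totals -1.10 (adjusted p = 0.005), called lower, with 1 library, NP-D@MP replicate 1, at 1.21 FPKM and the other NP-D@MP libraries at 0.282 and 0.292. Equal medians and quantile normalization gave -0.31 (adjusted p = 0.294) and -0.08 (adjusted p = 0.782) for Bub1 in NP-D@M against NP@M, not called, and turned its sign in NP-D@MP against PBS, to 0.18 (adjusted p = 0.538) and 0.44 (adjusted p = 0.156). The call of Bub1 in NP-D@M against NP@M was lost without NP@M replicate 2 (-0.47, adjusted p = 0.0899), NP-D@M replicate 1 (-0.67, adjusted p = 0.0603) or NP-D@M replicate 2 (-0.69, adjusted p = 0.0531). It was also lost without both libraries apart (-0.47, adjusted p = 0.0545).

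Genes of chromosome structure and of the spindle were mostly lower with D. Top2a, the enzyme that untangles sister DNA (ENSMUSG00000020914, chromosome 11 from 98992943 to 99024189), had 0.508, 0.395 and 0.127 FPKM in NP-D@MP libraries and 0.205, 0.212 and 0.40 FPKM in NP-D@M libraries, against 2.56, 6.43 and 2.73 FPKM in NP@M libraries and 2.08, 2.73 and 6.86 FPKM in PBS libraries. Mki67, which coats mitotic chromosomes and gives the Ki-67 proliferation stain its target (ENSMUSG00000031004, chromosome 7 from 135689784 to 135716361), had 1.8, 0.952 and 1.17 FPKM in NP-D@MP libraries and 1.17, 0.887 and 1.27 FPKM in NP-D@M libraries, against 3.09, 6.75 and 3.73 FPKM in NP@M libraries and 2.37, 3.88 and 8.31 FPKM in PBS libraries. For both genes every library with D was below every library without, and the highest libraries without D were PBS replicate 3 and NP@M replicate 2. By limma, Top2a had log2 fold changes of -1.86 (SE 0.35, adjusted p = 0.000463) in NP-D@M against NP@M and -1.75 (SE 0.35, adjusted p = 0.000698) in NP-D@MP against PBS, with -3.04 and -2.93 by the read totals. Its exons share 122 bases with Gm23451 on the same strand. Mki67 gave -1.34 (SE 0.35, adjusted p = 0.00361) in NP-D@M against NP@M and -1.23 (SE 0.35, adjusted p = 0.00586) in NP-D@MP against PBS, with -2.80 and -2.73 by the read totals. Kif11, the motor that keeps spindle poles apart, gave -1.23 (SE 0.27, adjusted p = 0.00146) and Tpx2, which activates Aurora A on the spindle, -0.98 (SE 0.16, adjusted p = 0.000152) in NP-D@M against NP@M, with -2.08 and -2.23 by the read totals. With quantile normalization neither was called, at -0.72 (adjusted p = 0.0636) and -0.26 (adjusted p = 0.199), nor was Mki67, at -0.92 (adjusted p = 0.121). In NP-D@MP against PBS it also lost the calls of Mki67, at -0.88 (adjusted p = 0.135), Kif11, at -0.54 (adjusted p = 0.152), and Tpx2, at -0.28 (adjusted p = 0.166). Kif20a, a motor of cytokinesis that overlaps Cdc23 over 1271 exonic bases, had the smallest fall as deposited, -0.55 (SE 0.21, adjusted p = 0.0292) in NP-D@M against NP@M, and was not called in NP-D@MP against PBS, at -0.37 (SE 0.21, adjusted p = 0.118). With the read totals both were called lower, at -1.82 (adjusted p = 2.29e-05) and -1.76 (adjusted p = 2.95e-05), and voom called the NP-D@MP comparison too, at -1.12 (adjusted p = 0.0415). Equal medians called neither, at -0.15 (adjusted p = 0.531) and 0.015 (adjusted p = 0.949), and quantile normalization neither, at 0.18 (adjusted p = 0.53) and 0.25 (adjusted p = 0.378). As deposited, the call in NP-D@M against NP@M was lost without NP@M replicate 2 (-0.46, adjusted p = 0.0906), NP-D@M replicate 2 (-0.50, adjusted p = 0.0789) or NP-D@M replicate 3 (-0.55, adjusted p = 0.0623), and without PBS replicate 1 the other was called (-0.52, adjusted p = 0.0485).

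The kinetochore genes Cenpe and Cenpf, too low to test, had 0 reads in each NP-D@M library, against 86 to 191 reads of Cenpe and 68 to 150 of Cenpf in NP@M libraries. NP-D@MP libraries had 3, 0 and 5 reads of Cenpe and 7, 0 and 0 of Cenpf. PBS libraries had 85 to 262 and 54 to 164. Against the floor of 3 reads per library, Cenpe was at least 9.16-fold lower in NP-D@M than in NP@M as deposited and at least 42.5-fold lower with the read totals, and Cenpf at least 7.11-fold and 33.0-fold lower. Nusap1, which bundles spindle microtubules and shares 172 exonic bases with Oip5, had 0, 0 and 0.0626 FPKM in NP-D@MP libraries and 0.143, 0.126 and 0.25 FPKM in NP-D@M libraries, against 0.913, 0.49 and 1.05 FPKM in NP@M libraries and 0.702, 0.834 and 1.85 FPKM in PBS libraries. The libraries with D were again the lower ones. Summed over the 20 mitotic genes, libraries with D held 49.7 to 67.9 CPM (recovered reads of these genes over all recovered reads of the library) and libraries without D 399 to 638 CPM. For the 13 S phase genes the ranges were 58.2 to 94.6 CPM with D and 475 to 554 CPM without. As deposited the sums fell less, and they mix genes that fell with genes that rose. The mitotic genes summed to 29.0 to 40.2 FPKM with D and 43.9 to 54.5 FPKM without. The S phase genes summed to 38.5 to 57.3 FPKM with D and 59.1 to 73.9 FPKM without. Of the mean S phase sum, Pcna alone had 34.3 of 50.7 FPKM in NP-D@M and 17.9 of 62.6 in NP@M. Of the mean mitotic sum of 31.8 FPKM in NP-D@M, Ccnb2, Ube2c, Birc5 and Cdk1 had 8.88, 9.09, 4.76 and 3.67. In NP@M these 4 genes had 3.76, 3.81, 1.0 and 2.08 of 49.3 FPKM. By the read totals the median log2 fold change of all tested genes was itself -1.47 in NP-D@M against NP@M.

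Partner genes that act in 1 complex or step moved apart, and a ratio of 2 genes within a library is free of any scaling between libraries. The pairs were chosen after their values were seen, and no test was made. Each sets a gene called higher in NP-D@M than in NP@M over a gene called lower. Ratios that rise with D were thus largely fixed by that choice. In that comparison 45.2% of all tested genes were called higher and 46.0% lower, so such pairs are common among all genes. Cdk1 over Ccnb1 was 12.4 to 123 in the 6 libraries with D and 0.560 to 1.59 in the 6 without. Ccnb2 over Ccnb1 was 29.5 to 355 with D and 1.06 to 2.60 without. Both ratios rest on the 1 to 11 reads of Ccnb1 in libraries with D, as the ratios below rest on 1 to 14 reads of Cdc20, 7 to 19 of Cdc45 and 6 to 21 of Aurkb. For the APC/C pair, Ube2c over Cdc20 was 8.88 to 160 with D and 0.225 to 0.780 without. In the passenger complex, Birc5 over Aurkb was 8.26 to 20.8 with D and 0.451 to 1.64 without. The helicase activators Gins2 over Cdc45 gave 6.4 to 19.4 with D and 0.190 to 0.947 without, and at the fork Pcna over Mcm5 gave 10.9 to 28.5 with D and 2.26 to 6.67 without. None of the 6 ratios overlapped between libraries with D and libraries without.

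**Figure D3:**
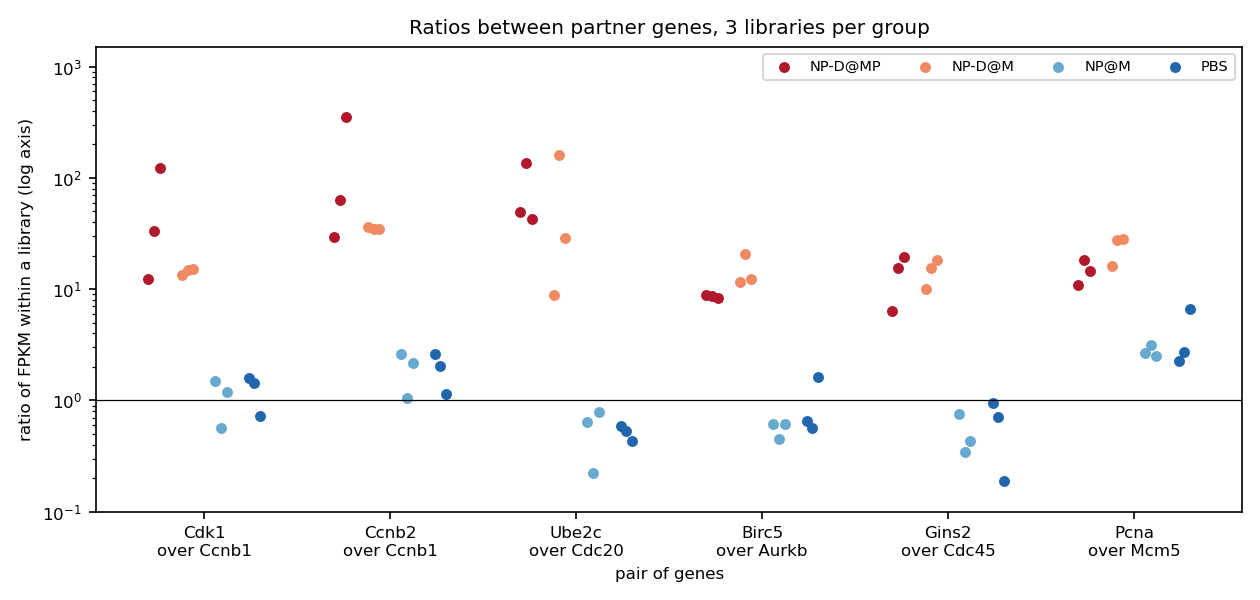
Ratio of FPKM of 6 pairs of partner genes within each library, on a log axis, for NP-D@MP, NP-D@M, NP@M and PBS from left to right, 1 point per library and 3 per group. Within each pair all points with D lie above all points without D; the nearest approach is Pcna over Mcm5, 10.9 with D against 6.67 without.

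The 6 genes that were higher as deposited in NP-D@M than in NP@M have short coding sequences. Their longest coding length in GENCODE M21 had a median of 669 bases and a range of 420 to 1194, against a median of 2218.5 and a range of 825 to 9531 for the 22 lower genes. Birc5, Ube2c, Gins2 and Pcna are the 4 shortest of the 28 by this measure. The trend was not particular to the list: across all tested genes with a coding length (n = 7769) Spearman's rho between coding length and log2 fold change was -0.43, across the 28 genes -0.30, and across 82 other cell cycle genes -0.54. By the gene length that the values are divided by, rho was -0.36 across all tested genes, 0.015 across the 28 and -0.22 across the 82. The trend within the list thus depended on the measure of length. These points share the same libraries. The 2 libraries apart showed the opposite order: in PBS replicate 3, set against its group mates, rho was 0.41 over all tested genes and 0.54 over the 28, and in NP@M replicate 2 it was 0.47 and 0.61. The part of coding length in the changes was not tested.

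**Figure D4:**
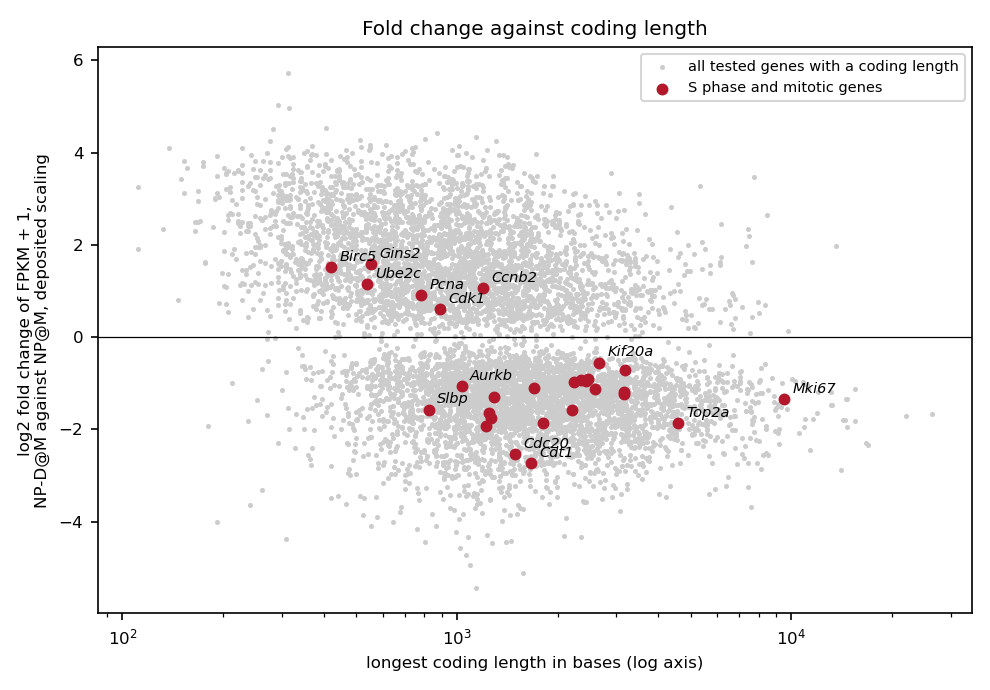
Log2 fold change of FPKM + 1 in NP-D@M against NP@M, deposited scaling, against the longest coding length in bases (log axis), for all tested genes with a coding length (grey) and the 28 S phase and mitotic genes (red). The 6 red points above 0 lie between 420 and 1194 bases, and few grey points lie near 0.

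Libraries without D differed among themselves in these genes. Top2a was 2.85 times the mean of its group mates in PBS replicate 3 and 2.43 times in NP@M replicate 2, and Mki67 2.66 and 1.98 times. Plk1 was 0.387 and 0.321 times its mates there, Ube2c 0.452 and 0.319 times, and Gins2 0.364 and 0.667 times. Both libraries thus moved the list in 2 directions at once.

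No gene of the list was called between groups that share D or lack it. NP@M against PBS asks what the particle does without D, and NP-D@MP against NP-D@M what the coat MP adds with D. In NP@M against PBS limma called 0 of 28 genes, 0 had an unadjusted p under 0.05 and voom called 0, with log2 fold changes from -0.27 for Pcna to 0.31 for Cdt1, where 0.0116% of all tested genes were called higher and 0.0% lower. In NP-D@MP against NP-D@M limma again called 0 of 28, 0 had an unadjusted p under 0.05 and voom called 0, with changes from -0.23 for Cdc20 to 0.39 for Bub1, where 0.0% of all tested genes were called higher and 0.0% lower. The largest of these changes had an SE of 0.26 for Bub1 and 0.26 for Cdt1. Cdk1 changed by 0.11 (SE 0.17) in NP-D@MP against NP-D@M and by -0.03 (SE 0.17) in NP@M against PBS. The range with D depends on the 1 FPKM added before the log, since many of these genes were low. With a pseudocount of 0.1 it ran from -0.96 to 1.58, and by voom from -1.77 to 3.01. Limma gave an unadjusted p under 0.05 for 2 genes with that pseudocount and for 3 without both libraries apart, and called 0. Plk1 had 0 FPKM in each NP-D@M library and 0.116 to 0.364 in NP-D@MP libraries. A call that was not made does not show that the groups were alike.

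The wider cell cycle programme, taken from 3 lists with no gene in common with the 38, was set beside the shares called among all tested genes. The shares were 46.0% lower and 45.2% higher in NP-D@M against NP@M, and 61.7% and 9.12% with the read totals. Of 22 tested genes of other replication factors, 11 were called lower and 6 higher in NP-D@M against NP@M, and of 38 other mitotic genes 26 lower and 7 higher. Of 22 regulators of E2F, RB and DREAM, 15 were lower and 6 higher. For replication the lower share thus lay near that of all tested genes. The level filter admits genes that reach 1 FPKM only in libraries without D, so these counts of lower genes are not independent of it. It left 22 of the 39 replication genes in the table, 38 of the 65 mitotic genes and 22 of the 25 regulators. Counts without the filter were not made for these lists. The median log2 fold changes of these lists were -0.55, -1.03 and -1.0, against 0.16 for all tested genes. With the read totals the counts were 17 lower and 1 higher, 32 lower and 0 higher, and 19 lower and 0 higher. As deposited, NP-D@MP against PBS gave 11 lower and 8 higher for replication, 27 and 8 for mitosis and 13 and 5 for regulators. Levels of the genes named from these lists are means ± SD over the 3 libraries of a group. E2f1, an activator of S phase genes, stood at 15.7 ± 0.912 FPKM in NP-D@M and 4.39 ± 0.935 FPKM in NP@M (n = 3 each), with log2 fold changes of 1.64 as deposited (adjusted p = 7.05e-05) and -0.28 by the read totals (adjusted p = 0.398). E2f2, a related activator, stood at 0.064 ± 0.0247 FPKM in NP-D@M and 2.45 ± 0.0594 FPKM in NP@M (n = 3 each), with log2 fold changes of -1.70 as deposited (adjusted p = 1.41e-05) and -2.70 by the read totals (adjusted p = 1.79e-06). These relatives went apart as deposited, and with the read totals E2f1 was not called.

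Rb1, the brake on E2F, was at 1.83 ± 0.564 FPKM in NP-D@M and 7.0 ± 3.91 FPKM in NP@M (n = 3 each), with log2 fold changes of -1.42 as deposited (adjusted p = 0.00596) and -3.04 by the read totals (adjusted p = 3.51e-05). E2f4, the E2F of the DREAM repressor, was at 3.37 ± 0.489 FPKM in NP-D@M and 13.3 ± 3.14 FPKM in NP@M (n = 3 each), with log2 fold changes of -1.69 as deposited (adjusted p = 5.71e-05) and -3.52 by the read totals (adjusted p = 2.08e-07). Both mitotic activators fell, and Foxm1 had 0.444 ± 0.285 FPKM in NP-D@M and 1.48 ± 0.139 FPKM in NP@M (n = 3 each), with log2 fold changes of -0.80 as deposited (adjusted p = 0.000652) and -1.87 by the read totals (adjusted p = 1.78e-07). Mybl2, the gene of B-MYB, had 0.0683 ± 0.0382 FPKM in NP-D@M and 0.96 ± 0.178 FPKM in NP@M (n = 3 each), with log2 fold changes of -0.87 as deposited (adjusted p = 5.75e-05) and -1.64 by the read totals (adjusted p = 9e-07). The phosphatase gene Cdc25a, which removes the brake on CDKs, was at 0.0584 ± 0.0493 FPKM in NP-D@M and 1.32 ± 0.212 FPKM in NP@M (n = 3 each), with log2 fold changes of -1.13 as deposited (adjusted p = 4.04e-06) and -1.98 by the read totals (adjusted p = 7.6e-08). Higher as deposited were the G1 genes Cdk4 and its cyclin Ccnd1. Cdk4 was at 78.9 ± 5.22 FPKM in NP-D@M and 20.4 ± 5.05 FPKM in NP@M (n = 3 each), with log2 fold changes of 1.93 as deposited (adjusted p = 7.68e-05) and -0.18 by the read totals (adjusted p = 0.615). Ccnd1 was at 8.39 ± 1.43 FPKM in NP-D@M and 2.55 ± 0.243 FPKM in NP@M (n = 3 each), with log2 fold changes of 1.39 as deposited (adjusted p = 1.91e-05) and -0.38 by the read totals (adjusted p = 0.0477), which was then called lower.

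Among other replication genes, Rpa3, a subunit of the single-strand binding protein, was called higher under both scalings, at 21 ± 3.52 FPKM in NP-D@M and 1.81 ± 0.884 FPKM in NP@M (n = 3 each), with log2 fold changes of 3.01 as deposited (adjusted p = 1.33e-05) and 1.27 by the read totals (adjusted p = 0.0349). The clamp loader gene Rfc2 was at 12.5 ± 1.87 FPKM in NP-D@M and 3.4 ± 0.316 FPKM in NP@M (n = 3 each), with log2 fold changes of 1.61 as deposited (adjusted p = 1.47e-05) and -0.26 by the read totals (adjusted p = 0.268). Dut, which clears dUTP, was at 14.1 ± 1.42 FPKM in NP-D@M and 3.72 ± 0.444 FPKM in NP@M (n = 3 each), with log2 fold changes of 1.68 as deposited (adjusted p = 1.48e-05) and -0.21 by the read totals (adjusted p = 0.349). Of those that fell, the MCM-binding gene Mcmbp was at 1.92 ± 0.334 FPKM in NP-D@M and 10.4 ± 2.11 FPKM in NP@M (n = 3 each), with log2 fold changes of -1.96 as deposited (adjusted p = 1.4e-05) and -3.65 by the read totals (adjusted p = 4.34e-08). Dnmt1, the maintenance DNA methyltransferase, was at 1.31 ± 0.334 FPKM in NP-D@M and 6.73 ± 0.879 FPKM in NP@M (n = 3 each), with log2 fold changes of -1.75 as deposited (adjusted p = 7.53e-05) and -3.31 by the read totals (adjusted p = 9.58e-08). Rfc1, the large clamp loader subunit, was at 0.47 ± 0.202 FPKM in NP-D@M and 2.77 ± 0.669 FPKM in NP@M (n = 3 each), with log2 fold changes of -1.36 as deposited (adjusted p = 0.000122) and -2.57 by the read totals (adjusted p = 7.2e-07). As in the list of 38, genes of 1 complex, here Rfc1 and Rfc2, took opposite directions as deposited.

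Among other mitotic genes, Cks1b, a small subunit of CDK complexes, was at 34.5 ± 8.52 FPKM in NP-D@M and 5.23 ± 0.38 FPKM in NP@M (n = 3 each), with log2 fold changes of 2.48 as deposited (adjusted p = 3.22e-06) and 0.49 by the read totals (adjusted p = 0.0982). The centromeric histone gene Cenpa was at 3.8 ± 0.883 FPKM in NP-D@M and 1.3 ± 0.242 FPKM in NP@M (n = 3 each), with log2 fold changes of 1.05 as deposited (adjusted p = 0.000452) and -0.43 by the read totals (adjusted p = 0.0695). Cenpm, of the inner kinetochore, was at 1.93 ± 0.598 FPKM in NP-D@M and 0.473 ± 0.257 FPKM in NP@M (n = 3 each), with log2 fold changes of 0.99 as deposited (adjusted p = 0.00172) and -0.04 by the read totals (adjusted p = 0.898). These 3 were called higher as deposited, and none of them was called with the read totals. Ccnf, the gene of cyclin F, had 0 FPKM in all NP-D@M libraries and 3.27 ± 0.369 FPKM in NP@M libraries (SD, n = 3). Hjurp, the chaperone of the centromeric histone, was at 0.203 ± 0.149 FPKM in NP-D@M and 4.0 ± 0.491 FPKM in NP@M (n = 3 each), with log2 fold changes of -2.06 as deposited (adjusted p = 4.83e-07) and -3.23 by the read totals (adjusted p = 4.29e-09). Lmnb1, a nuclear lamin, was at 0.613 ± 0.386 FPKM in NP-D@M and 7.76 ± 0.976 FPKM in NP@M (n = 3 each), with log2 fold changes of -2.46 as deposited (adjusted p = 6.16e-07) and -3.87 by the read totals (adjusted p = 5.56e-09).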

How the data were processed

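Per the labels' protocols, total RNA was made into libraries with an Illumina TruSeq kit; the strand setting is not given in the sources used here. Bowtie 0.12.2 and the build mm8 are named, without their role, in the submitters' processing notes. The authors deposited 1 table of FPKM values and gene lengths for 11669 genes and 12 libraries; the unit was read from the values, since the header does not name it. Values times gene length came in equal steps in each library, and dividing by the step gave recovered reads, whole to within 0.05 for 100.0% of values above 0. Positions follow the table; they equal GENCODE M21 (GRCm38) for 11189 of 11659 matched identifiers and for 32 of the 33 listed genes.

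Genes with at least 1 FPKM in at least 3 libraries were tested on log2(FPKM + 1), which understates changes of low genes, with limma 3.58.1 (trend and robust) in R 4.3.3, 4 group means and 12 libraries. Tests were 2-sided, with Benjamini-Hochberg adjustment over 8615 genes in each of 4 comparisons. The table holds FPKM, so the test on counts was an alternative only: voom in limma on the recovered reads, with TMM factors. Other alternatives were the recovered read totals, equal medians, quantile normalization, no filter, a pseudocount of 0.1, limma without trend, and leaving out each library or both that stood apart. The fit was also run on simulated libraries with few changed genes, true library sizes and no library apart. That run cannot speak to the scalings or to the libraries that stood apart here. The floor for a count of 0, 3 reads, covers counting error alone, as PCR copies are not told apart here.

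The genes, lists and markers were chosen with earlier results of these data known. Values in every library are given for up to 4 called genes with the largest fold change in each direction, class and comparison, and for Cdk1, Ccnb1, Mki67, Top2a, Pcna, Ccne1 and Cdt1. Other lists are named by up to 3 called genes with the smallest adjusted p in each direction in NP-D@M against NP@M, plus E2f1, Foxm1, Mybl2 and Rb1. Tables and plots were made in Python 3.11.15 (matplotlib 3.10.9, numpy 2.4.6, pandas 2.3.3).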

Additional observations from a re-analysis of the deposited data

How the results depend on the processing

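No paired analysis was possible because the labels give each library its own number and groups share none. Counts of called genes of the list moved by more than 1.5 times in few settings. In NP-D@M against NP@M, genes called higher numbered 6 as deposited, 0 with the recovered read totals (also 0 without PBS replicate 3 and NP@M replicate 2, chosen after seeing the data) and 3 with voom, and genes called lower numbered 22 as deposited and 13 with quantile normalization. In NP-D@MP against PBS, genes called higher numbered 5 as deposited, 0 with the read totals (also 0 without those libraries) and 3 with voom. Leaving out each library in turn left 20 to 22 lower and 6 higher in NP-D@M against NP@M, 19 to 20 lower and 5 to 6 higher in NP-D@MP against PBS, and 0 in NP-D@MP against NP-D@M and in NP@M against PBS; no sign of a called gene turned. Without both libraries that stood apart, 17 of all tested genes were called in NP-D@MP against NP-D@M, and 0 of the list.

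In NP-D@M against NP@M with the read totals, the log2 fold change was -1.18 for Pcna, -1.0 for Cdk1, -0.79 for Ccnb2 and -0.66 for Ube2c. With the read totals and without those 2 libraries it was -1.28 for Pcna, -1.12 for Cdk1, -0.90 for Ccnb2, -1.14 for Ube2c and -0.092 for Birc5. Quantile normalization gave -0.41 for Pcna and 0.18 for Kif20a. In NP-D@MP against PBS the read totals gave -1.72 for Pcna, -0.99 for Cdk1, -0.59 for Ccnb2 and -0.54 for Ube2c, and without those 2 libraries -1.60 for Pcna, -1.14 for Cdk1, -0.74 for Ccnb2, -0.89 for Ube2c and -0.21 for Gins2. There quantile normalization gave -0.95 for Pcna and 0.10 for Aurkb. Among genes not called there, it gave 0.44 for Bub1 and 0.25 for Kif20a, equal medians gave 0.18 and 0.015, and voom gave -0.16 for Pcna. The read totals differ from the deposited values by construction, in the library sizes alone; the cause of the other turns was not tested. Reads per gene with D were often under 10, which limits the size of the falls more than their direction.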
